A study of Mus musculus with 67 samples.

Results

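The T-box genes Tbx1, Tbx2, Tbx3, Tbx4, Tbx5, Tbx6, Tbx15, Tbx18 and Tbx20 were followed across 14 RNA-seq libraries of mouse forelimb buds. They were taken by name from the deposited gene tables, 9 of the 46983 gene IDs that each table lists, and each of the 9 names matched 1 ID. The libraries form 4 groups: whole forelimb buds at E9.25 (21 to 23 somites), before Hedgehog (HH) signaling starts in the bud, from wild-type (WT, n = 3) and Gli3-/- (n = 4) embryos, and the anterior part of forelimb buds at E10.5 (32 to 35 somites), after it has started, from WT (n = 4) and Gli3-/- (n = 3) embryos. Gli3 encodes a transcription factor that is processed into a repressor of HH target genes. The null allele was Xt-J, a deletion within Gli3 that is present in all cells of the embryo, and it was kept on the Swiss Webster background. Each library pooled buds, about 4 pairs for each E9.25 library and 2 pairs for each later one, so that single embryos cannot be seen in these values. Stage and dissected part changed together, so that a difference between E9.25 and anterior E10.5 cannot be assigned to time or to position. In bulk tissue, fewer cells of a type and less RNA per cell cannot be told apart either.

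T-box proteins bind DNA through a shared domain, the T-box, and act as activators or repressors of transcription. Tbx5 is needed for the forelimb bud to form, and its close relative Tbx4 acts in the hindlimb. Tbx2 and Tbx3 are repressors of the bud margins and respond to BMP signals, Tbx15 and Tbx18 are factors of mesenchyme and of the shoulder girdle and trunk, Tbx20 and Tbx1 are best known from the heart and the pharyngeal region, and Tbx6 from the presomitic mesoderm.

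Levels are given in TPM, which divides the reads of a gene by its transcript length and scales every library to one and the same total, so that genes can be compared with each other. Estimated depth was 38.1 to 56.8 M reads per library, and 1 TPM stood for 20.7 to 29.3 reads per kilobase of transcript. The limma test was run on log2(TPM + 1) over genes with at least 1 TPM in at least 3 of the libraries compared, and a gene was called at a Benjamini-Hochberg adjusted p under 0.05. Differences on this scale understate the change of genes near or below 1 TPM. A gene under 1 TPM throughout a group passes the filter only through the other group, which in effect sets the direction of a call. All p-values thus describe the spread between pools. The whole-gene TPM of Gli3 itself was 44.2, 15.8 and 44.6 in the 3 E9.25 WT libraries and 14.3 to 20.8 in E9.25 Gli3-/-, so that the library labelled WT replicate 2 lay inside the Gli3-/- range. At E10.5 it was 73.4 to 89.7 in WT and 38.7 to 40.9 in Gli3-/-, a fall of -1.01 (SE 0.08, limma adjusted p = 0.000335). The fits of the T-box genes that use the E9.25 WT group are therefore also given without the library labelled WT replicate 2. That library also had the lowest depth, 38.1 M reads, and the fewest genes at 1 TPM or more, 13276 against a median of 15028. The reason for its low Gli3 level was not tested. Limb mesenchyme markers such as Prrx1 were high in every group, with a summed level of 888 to 1054 TPM in E9.25 WT, 766 to 1136 in E9.25 Gli3-/-, 1129 to 1397 in E10.5 WT, and 777 to 809 in the later Gli3-/- libraries.

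The 9 genes lie on 6 chromosomes of the mouse genome (mm10). Tbx2 (chromosome 11, 85832551 to 85841948, plus strand) and Tbx4 (chromosome 11, 85886422 to 85916097, plus strand) are neighbors with 44474 bases between them. Tbx3 (chromosome 5, 119670669 to 119684724, plus strand) and Tbx5 (chromosome 5, 119832668 to 119885219, plus strand) form a second such pair, 147944 bases apart. Tbx15 lies on chromosome 3 (99240381 to 99354259, plus strand), Tbx6 on chromosome 7 (126781483 to 126785560, plus strand), and Tbx1 on chromosome 16 (18581713 to 18586969, minus strand). Tbx18 (87702800 to 87731260) and Tbx20 (24720812 to 24774303) both lie on the minus strand of chromosome 9. The listed values of these 2 genes went in opposite directions between the stages. The fall of Tbx20 in WT did not pass after adjustment (exact permutation p = 0.0286, adjusted p = 0.129). In Gli3-/- lower was the only direction open to Tbx20. The annotated starts of both genes were also the same in the deposited tables and in RefSeq. The 250 bases before each start are therefore shown here (RefSeq, GRCm38.p6, the patch release of the mm10 build, 5′ to 3′ on the gene's strand). Capitals mark the matches of 5 motifs searched on both strands: the GC box, with the letters GGGCGG, the CCAAT box, the TATA box, with the letters TATAAA, the T-box half-site, with the letters AGGTGTGA, and the GLI site, with the letters TGGGTGGTC. The marked matches do not overlap.
Tbx18, chr9:87731261-87731510, minus strand: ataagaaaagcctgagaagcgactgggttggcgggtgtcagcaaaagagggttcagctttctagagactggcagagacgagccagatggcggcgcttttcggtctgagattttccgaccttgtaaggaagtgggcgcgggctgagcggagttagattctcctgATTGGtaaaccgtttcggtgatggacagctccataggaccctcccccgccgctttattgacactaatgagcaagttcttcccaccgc
Tbx20, chr9:24774304-24774553, minus strand: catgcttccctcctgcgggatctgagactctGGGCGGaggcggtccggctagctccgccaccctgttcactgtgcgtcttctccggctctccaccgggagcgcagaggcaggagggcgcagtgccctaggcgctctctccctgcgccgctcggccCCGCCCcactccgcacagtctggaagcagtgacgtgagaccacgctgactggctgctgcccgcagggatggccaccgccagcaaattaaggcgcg

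The Tbx20 window held 2 GC boxes, the nearer of them 90 bases before the start, and the Tbx18 window held 1 CCAAT box on the other strand, 83 bases before the start. Such letters are common. Of all 32851 windows of this length in the RefSeq table, 32.7% held the GC box and 33.8% the CCAAT box, against 12.4% for the TATA box, 1.1% for the T-box half-site and 0.2% for the GLI site. None of the last 3 motifs stood in either window, which says only that these letters are not in them. GC content was 68.8% for Tbx20, with 22 CpG dinucleotides, and 54.0% for Tbx18, with 15, where the median window had 52.4% and 6. Of the 9 genes, 5 had an entry in the RefSeq table, and Tbx6 too had a RefSeq start equal to that of the tables, and its window held a TATA box 38 bases before the start.

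The summed level of the 9 genes was 59.8 to 108 TPM in E9.25 WT, 87.9 to 149.9 in E9.25 Gli3-/-, 200.0 to 283 in E10.5 WT, and 226 to 293 in the later Gli3-/- libraries. The make-up of that sum differed between the stages. At E9.25 Tbx5 and Tbx3 led in every library. Tbx5 took 33.9% to 41.2% of the sum in WT and 37.0% to 44.0% in Gli3-/-, and Tbx3 took 25.3% to 39.3% and 36.1% to 42.6%. At anterior E10.5 Tbx15 led, with 40.6% to 45.7% of the sum in WT and 49.9% to 53.3% in Gli3-/-, followed by Tbx5 with 21.7% to 25.5% and 24.9% to 26.0%. Tbx2 made up 4.09% to 6.57% of the later WT sums and 1.17% to 1.79% of the later Gli3-/- sums, and those ranges do not meet.

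**Figure D1:**
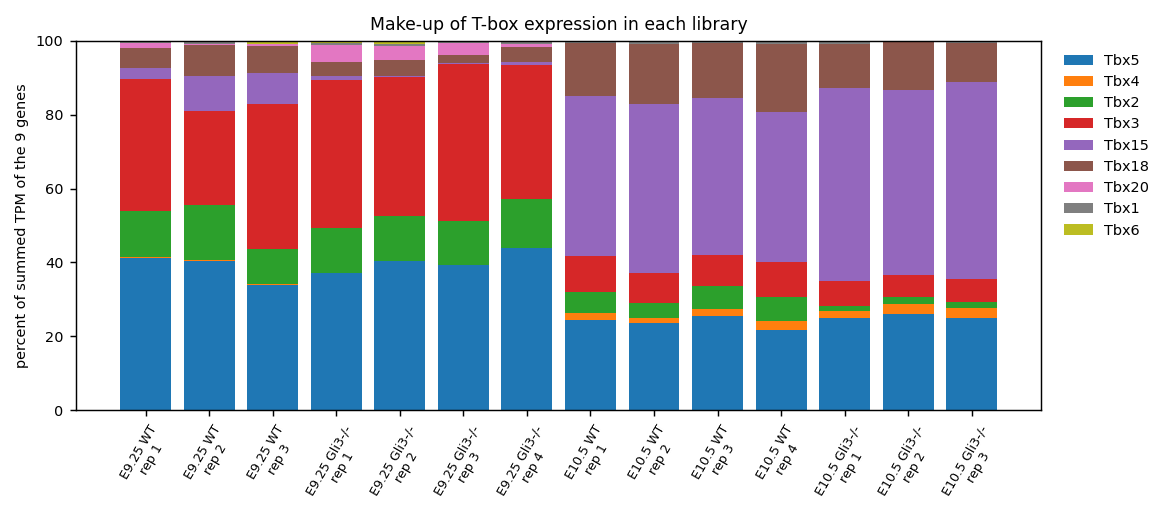
Each bar is 1 library and each color 1 gene, with height the percent of the summed TPM of the 9 T-box genes. At E9.25 Tbx5 and Tbx3 fill most of the bar, and at anterior E10.5 Tbx15 takes 40.6% to 53.3% of it.

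The order of the mean levels was Tbx5, Tbx3, Tbx2, Tbx18, Tbx15, Tbx20, Tbx6, Tbx1 and Tbx4 in E9.25 WT. In that order the ranges of Tbx5 and Tbx3, of Tbx18 and Tbx15, and of each neighboring pair from Tbx20 down to Tbx4 overlapped. In E9.25 Gli3-/- Tbx20 stood above Tbx15, with overlapping ranges, and the others kept their places. In E10.5 WT the order was Tbx15, Tbx5, Tbx18, Tbx3, Tbx2, Tbx4, Tbx1, Tbx6 and Tbx20, and the ranges of Tbx5 and Tbx18, of Tbx3 and Tbx2, and of Tbx1 and Tbx6 overlapped. In E10.5 Gli3-/- Tbx4 had moved ahead of Tbx2, again with overlapping ranges.

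**Figure D2:**
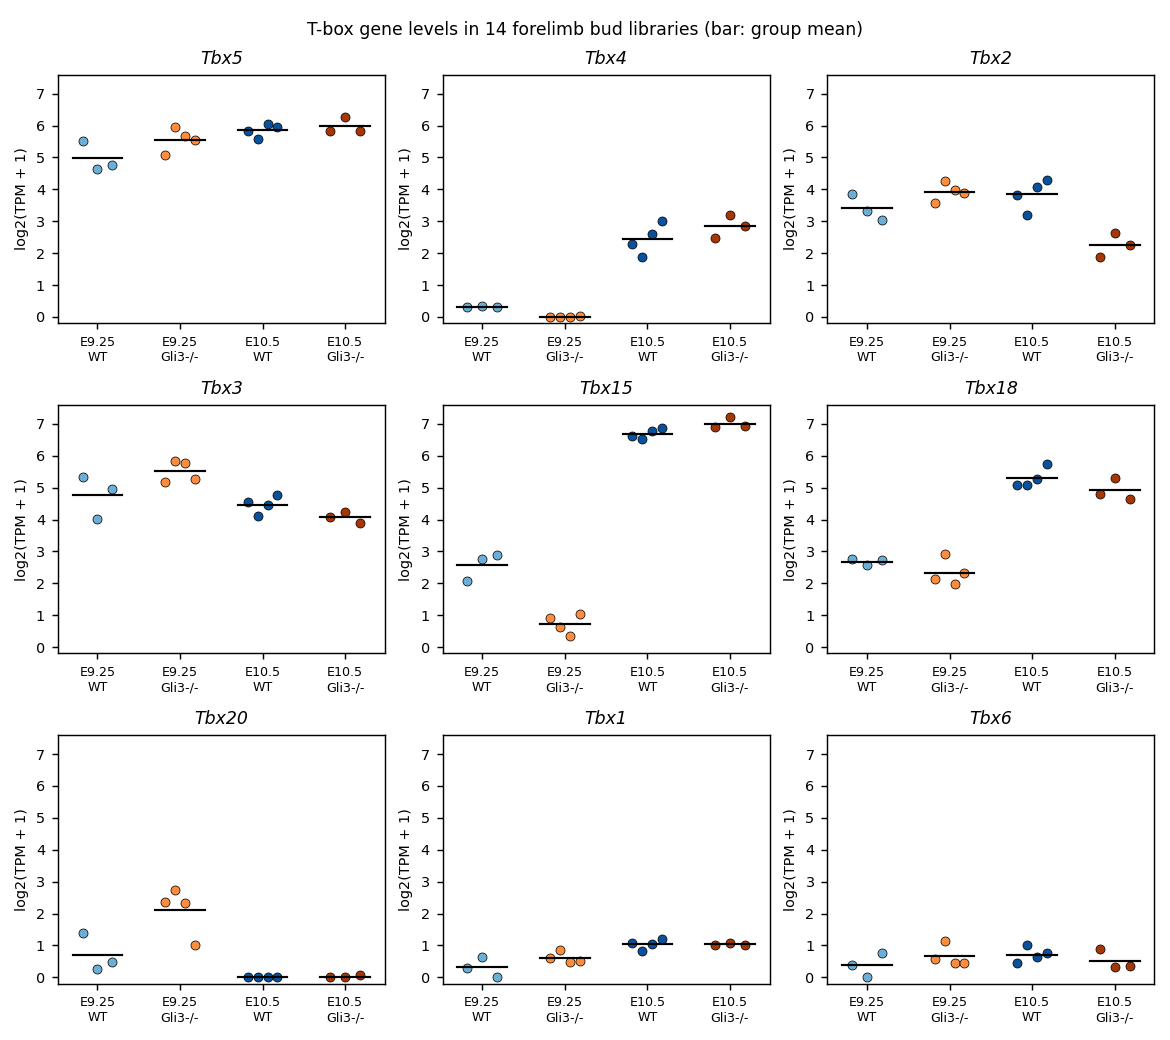
Points are libraries, with log2(TPM + 1) on the vertical axis and the 4 groups on the horizontal axis, and bars are group means. Tbx15 lies at 0.35 to 1.05 in E9.25 Gli3-/- and at 2.08 to 2.88 in E9.25 WT, and Tbx2 at 1.87 to 2.64 in E10.5 Gli3-/- and at 3.20 to 4.29 in E10.5 WT.

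Loss of Gli3 was first examined before HH signaling. Of the 9 genes, 6 passed the filter at E9.25 and 1 was called, against 0.136% of all 14760 genes tested, of which 3247 had an unadjusted p under 0.05. That gene was Tbx15, which regulates the skeleton of the shoulder girdle and limb. It stood at 3.24, 5.72 and 6.38 TPM in WT and at 0.869, 0.560, 0.272 and 1.07 TPM in Gli3-/-. Every Gli3-/- library was below every WT library, and the groups did not overlap for 13.3% of all genes tested. Only replicate 4 of Gli3-/- reached 1 TPM, so that Tbx15 passed the filter through WT and lower was the direction open to it. The means were 5.11 ± 1.66 TPM in WT (SD, n = 3) and 0.694 ± 0.351 TPM in Gli3-/- (SD, n = 4), a level 7.37-fold lower. The fitted difference was -1.84 on the log2 scale (SE 0.26, 95% interval -2.42 to -1.25, limma adjusted p = 0.0340). The median gene differed by 0.23 in this comparison, and relative to it Tbx15 differed by -2.06. Without the library labelled WT replicate 2 the call was lost (-1.75, limma adjusted p = 0.0719). It was also lost without WT replicate 3 (limma adjusted p = 0.195) or without Gli3-/- replicate 1, 2 or 3, and with a pseudocount of 0.1 or no filter on low values.

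Tbx20, a gene of the heart and lateral plate, moved the other way in its group means, without passing the test. Its level was 1.62, 0.191 and 0.383 TPM in E9.25 WT and 4.09, 5.63, 4.00 and 0.995 TPM in E9.25 Gli3-/-. The lowest Gli3-/- library lay below the highest WT library, so the groups overlapped. The difference was 1.39 (SE 0.41, 95% interval 0.48 to 2.31, limma adjusted p = 0.217), and 1.17 without the library labelled WT replicate 2 (limma adjusted p = 0.433). The 14 markers of lateral plate, flank and heart were read beside it. Of these 13 were tested, 4 were higher in Gli3-/- and 0 were lower, with a median difference of 1.29 against 0.23 for all genes. The 4 were Osr1 (2.09, limma adjusted p = 0.00636), Foxf1 (3.68, limma adjusted p = 0.0125), Gata4 (2.87, limma adjusted p = 0.0128) and Tcf21 (1.53, limma adjusted p = 0.0380). Foxf1 marks splanchnic mesoderm, and Gata4 the heart and visceral mesoderm. Foxf1 and Tcf21 had WT medians of 0.495 and 0.88 TPM, so that they passed the filter through Gli3-/-. The summed level of the 14 markers was 35.4 to 78.0 TPM in WT and 105 to 259 TPM in Gli3-/-. Nkx2-5, a defining gene of heart muscle, was listed at 0 in all 7 libraries. Without the library labelled WT replicate 2, 3 of the 13 were called, all higher, and the median was 1.19. The part of these markers in the Tbx20 level was not tested.

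**Figure D3:**
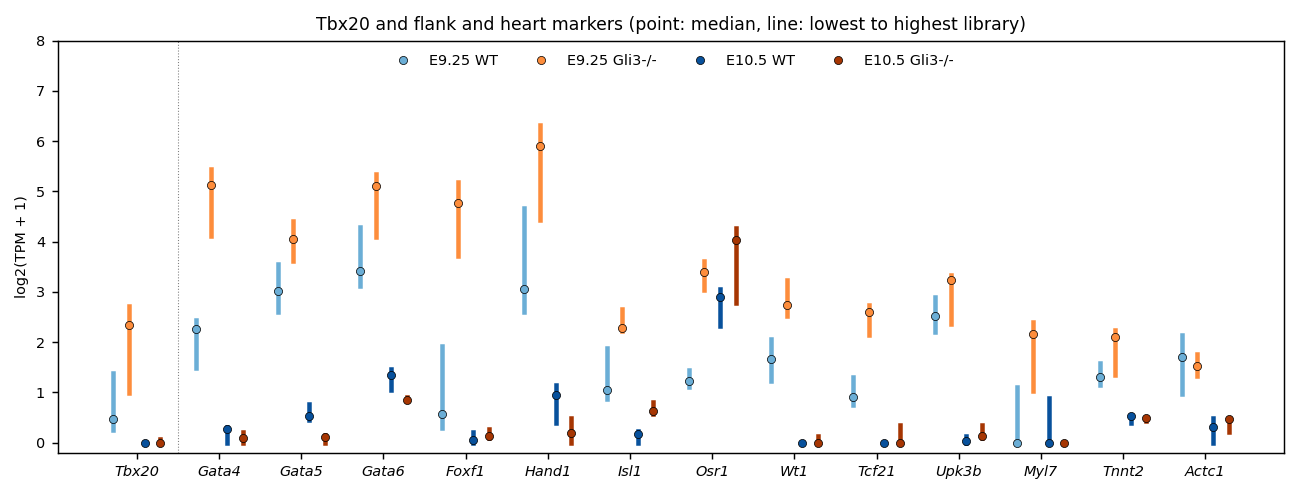
Points are group medians of log2(TPM + 1), lines run from the lowest to the highest library, and colors are the 4 groups, for Tbx20 at the left and 13 flank and heart markers. Tbx20, Gata4, Foxf1 and Hand1 are ordered alike, with E9.25 Gli3-/- highest and both anterior E10.5 groups lowest, whereas Osr1 is lowest in E9.25 WT.

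The remaining genes in the E9.25 test were Tbx2, Tbx3, Tbx5 and Tbx18, and their WT and Gli3-/- ranges overlapped. Tbx5, which starts the forelimb program and activates Fgf10, stood at 44.6, 24.1 and 26.0 TPM in WT and 32.5, 60.6, 49.7 and 45.7 TPM in Gli3-/-. Tbx3 stood at 38.9, 15.1 and 30.2 TPM in WT and 35.2, 56.3, 53.9 and 37.5 TPM in Gli3-/-. The library labelled WT replicate 2 was the lowest for both. The differences were 0.58 for Tbx5 (limma adjusted p = 0.221), 0.75 for Tbx3 (limma adjusted p = 0.217), 0.52 for Tbx2 (limma adjusted p = 0.227) and -0.35 for Tbx18 (limma adjusted p = 0.361). Without the library labelled WT replicate 2 the difference of Tbx3 was 0.38 (limma adjusted p = 0.441), and those of Tbx5, Tbx2 and Tbx18 were 0.42, 0.48 and -0.40, none of them called. Tbx2 ranged from 7.22 to 13.4 TPM in WT and from 10.9 to 18.2 TPM in Gli3-/-. Tbx18 ranged from 4.92 to 5.73 TPM and from 2.94 to 6.50 TPM. The 16 forelimb initiation genes tested beside them included 1 that was higher, Aldh1a2 (1.76, limma adjusted p = 0.0380), which makes retinoic acid, and 1 that was lower, Lhx2 (-2.0, limma adjusted p = 0.0142), a LIM homeobox factor of the limb mesenchyme. The same counts, 1 higher and 1 lower, were found without the library labelled WT replicate 2.

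Tbx4 was below the filter at E9.25. It was listed at 0.229, 0.274 and 0.244 TPM in WT, which rests on 6.37 to 6.69 reads per kilobase, and at 0, 0, 0 and 0.0315 TPM in Gli3-/-. The groups did not overlap, as in 13.3% of the genes that passed the filter. The two-sided exact permutation p was 0.0286, the smallest that 3 against 4 libraries allow, or 0.129 after adjustment over the 9 such tests. Among hindlimb genes 3 of 7 were tested at this stage and 0 were called. These included Pitx1, at 0.491 to 3.18 TPM in WT and 0.981 to 4.20 TPM in Gli3-/-, and Isl1, at 0.817 to 2.68 TPM and 3.65 to 5.30 TPM (1.10, limma adjusted p = 0.153). Tbx1 was listed at 0 to 0.561 TPM in WT and 0.391 to 0.813 TPM in Gli3-/- (exact permutation p = 0.2), and Tbx6 at 0 to 0.71 TPM and 0.364 to 1.22 TPM (exact permutation p = 0.4).

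At anterior E10.5, after the onset of HH signaling, 7 of the 9 genes were tested and 1 was called, against 4.77% of all 15654 genes. The called gene was Tbx2, a repressor of the bud margins. Its level was 13.1, 8.18, 15.8 and 18.6 TPM in WT and 2.65, 5.24 and 3.77 TPM in Gli3-/-. All 3 Gli3-/- libraries were below all 4 WT libraries, and the groups did not overlap for 19.3% of all genes tested. The means were 3.89 ± 1.30 TPM in Gli3-/- (SD, n = 3) and 13.9 ± 4.43 TPM in WT (SD, n = 4), a level 3.58-fold lower. The difference was -1.59 (SE 0.26, 95% interval -2.18 to -1.0, limma adjusted p = 0.00998). It was called with each library left out in turn, at -1.81 to -1.40. It was not called without a filter on low values (-1.59, limma adjusted p = 0.0604) or with a block for the replicate numbers in the sample titles (-1.44, limma adjusted p = 0.112), and it was called with the number in the deposited tables as a block (-1.60, limma adjusted p = 0.00996).

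Tbx3, the closest paralog of Tbx2, stood at 22.3, 16.3, 21.1 and 26.4 TPM in E10.5 WT and 15.8, 17.8 and 13.9 TPM in Gli3-/-. The groups overlapped by 1 library on each side, and the difference of -0.41 (95% interval -0.75 to -0.07) had a limma adjusted p of 0.179. Set against each other within a library, the log2 difference Tbx2 minus Tbx3 was -0.91 to -0.40 in WT and -2.21 to -1.59 in Gli3-/-. This difference averaged -0.63 ± 0.23 (SD, n = 4) and -1.81 ± 0.34 (SD, n = 3), a change of -1.18 (two-sided exact permutation p = 0.0286, adjusted p = 0.0490 over 12 comparisons of paralogs). That p is the smallest that 3 against 4 libraries allow. The adjusted value therefore depends on how many of the 12 comparisons reached it.

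Members of the BMP pathway, to which Tbx2 and Tbx3 respond, were counted at the same stage. Of 12 tested, 2 were higher and 5 lower in Gli3-/-. Msx2 (-2.25, limma adjusted p = 7.36e-05), Id2 (-1.28, limma adjusted p = 0.000335), Id1 (-0.95, limma adjusted p = 0.000424) and Msx1 (-0.86, limma adjusted p = 0.00270), all response genes, were lower. Msx2 fell from 31.8 to 43.3 TPM in WT to 6.73 to 8.98 TPM in Gli3-/-. The 2 higher genes were Grem1 (1.19, limma adjusted p = 0.00626), which encodes a BMP antagonist, and the ligand gene Bmp2 (0.95, limma adjusted p = 0.00998). Smad6, Smad7 and Bambi, of the same list, were not called. The ligand gene Bmp4 was at 34.7 to 46.8 TPM in WT and 39.7 to 52.3 TPM in Gli3-/- (0.15, limma adjusted p = 0.555). At E9.25, 0 of 13 were called, and Msx2 stood at 33.8 to 37.1 TPM in WT and 33.3 to 48.6 TPM in Gli3-/-. The part of BMP signals in the Tbx2 level was not tested. The 9 limb mesenchyme markers included 8 that were lower and 1 that was higher at E10.5, led by Meis1 (-1.40, limma adjusted p = 0.000586), and the higher gene was Fgf10 (1.05, limma adjusted p = 0.000643), which signals from the mesenchyme to the ridge.

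Tbx15 and Tbx18 diverged at anterior E10.5. Tbx15 stood at 97.6, 91.3, 108 and 115 TPM in WT and 118, 146 and 121 TPM in Gli3-/-. The groups did not overlap, which held for 19.3% of all genes tested, and the difference of 0.31 (SE 0.10, 95% interval 0.08 to 0.54) was not called (limma adjusted p = 0.127). Tbx18 stood at 32.6, 32.6, 37.9 and 52.8 TPM in WT and 26.9, 38.2 and 24.1 TPM in Gli3-/-, with overlapping groups (-0.38, limma adjusted p = 0.324). Within a library Tbx15 exceeded Tbx18 by 1.11 to 1.56 in WT and by 1.91 to 2.28 in Gli3-/-, a change of 0.69 (exact permutation p = 0.0286, adjusted p = 0.0490). At E9.25 the genotype change had the other sign. Tbx15 minus Tbx18 was -0.67, 0.18 and 0.16 in the WT libraries and -2.26 to -1.22 in Gli3-/-. It averaged -0.11 ± 0.48 (SD, n = 3) without and -1.60 ± 0.48 (SD, n = 4) with the Gli3 deletion, a change of -1.49 (exact permutation p = 0.0286, adjusted p = 0.0490). Genes known from the shoulder girdle were counted for comparison. At E10.5, 9 of 12 tested were lower in Gli3-/- and 0 higher, led by Pax1 (-4.23, limma adjusted p = 0.000645), Hoxc6 (-2.05, limma adjusted p = 0.000768), Alx4 (-3.51, limma adjusted p = 0.00103) and Alx1 (-1.45, limma adjusted p = 0.00136), while at E9.25 0 of 11 were called. Pax1 was at 8.27 to 34.6 TPM in E10.5 WT and at most 0.172 TPM in E10.5 Gli3-/-. It passed the filter through WT, so that lower was the direction open to it, and its size depends on the added 1 TPM.

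**Figure D4:**
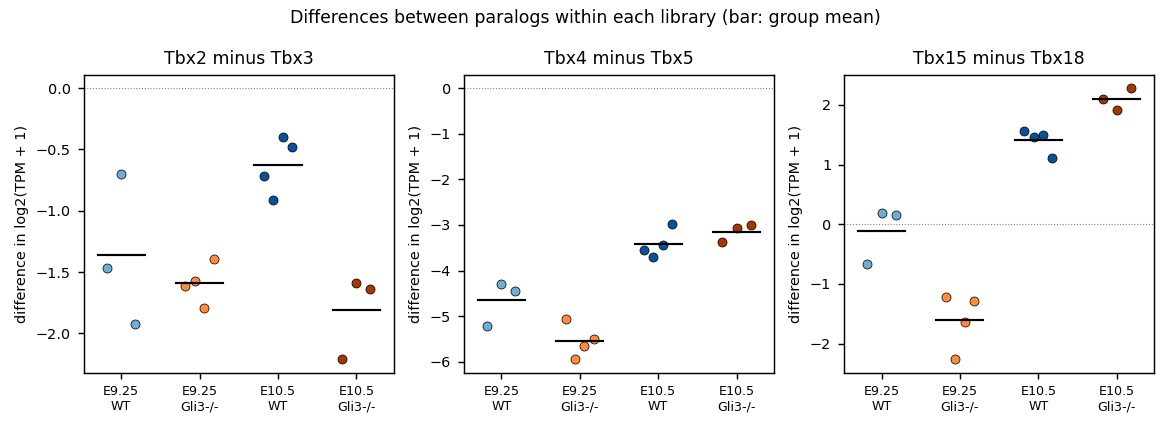
Each point is 1 library and gives the log2(TPM + 1) of the first gene minus that of the second, with bars for group means. Tbx2 minus Tbx3 is lower in all 3 E10.5 Gli3-/- libraries than in E10.5 WT and overlaps both E9.25 groups, and Tbx15 minus Tbx18 is lowest in E9.25 Gli3-/- and highest in E10.5 Gli3-/-, without overlap.

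The limb-type genes did not pass the test at E10.5. Tbx5 stood at 55.5, 47.1, 64.8 and 61.5 TPM in WT and 56.3, 76.1 and 56.3 TPM in Gli3-/- (0.13, 95% interval -0.17 to 0.43, limma adjusted p = 0.654). Tbx4 stood at 3.84, 2.70, 5.11 and 6.99 TPM in WT and 4.54, 8.26 and 6.14 TPM in Gli3-/- (0.40, 95% interval -0.20 to 0.99, limma adjusted p = 0.457). Within a library the log2 difference Tbx4 minus Tbx5 was -3.70 to -2.97 in WT and -3.37 to -3.0 in Gli3-/-, and the means differed by 0.27 (exact permutation p = 0.229). Other forelimb outgrowth genes did move at this stage: of 15 tested, 4 were higher, led by Fgf8 (1.36, limma adjusted p = 0.000501) and Fgf10 (1.05, limma adjusted p = 0.000643), and 8 were lower, among them Lhx9 (-0.93, limma adjusted p = 0.000806) and Hoxc5 (-2.14, limma adjusted p = 0.00153). Of the hindlimb genes 2 were tested and 0 called. Tbx1 ranged from 0.761 to 1.31 TPM in WT and from 0.994 to 1.14 TPM in Gli3-/-, a difference of 0 to 2 decimals with a 95% interval from -0.33 to 0.33 (limma adjusted p = 0.997). Tbx6 was listed at 0.378 to 0.997 TPM and 0.256 to 0.843 TPM (exact permutation p = 0.343). The tables give 0 for Tbx20 in each of the 4 WT libraries and in 2 of 3 Gli3-/- libraries, and 0.0517 TPM in the third.

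**Figure D5:**
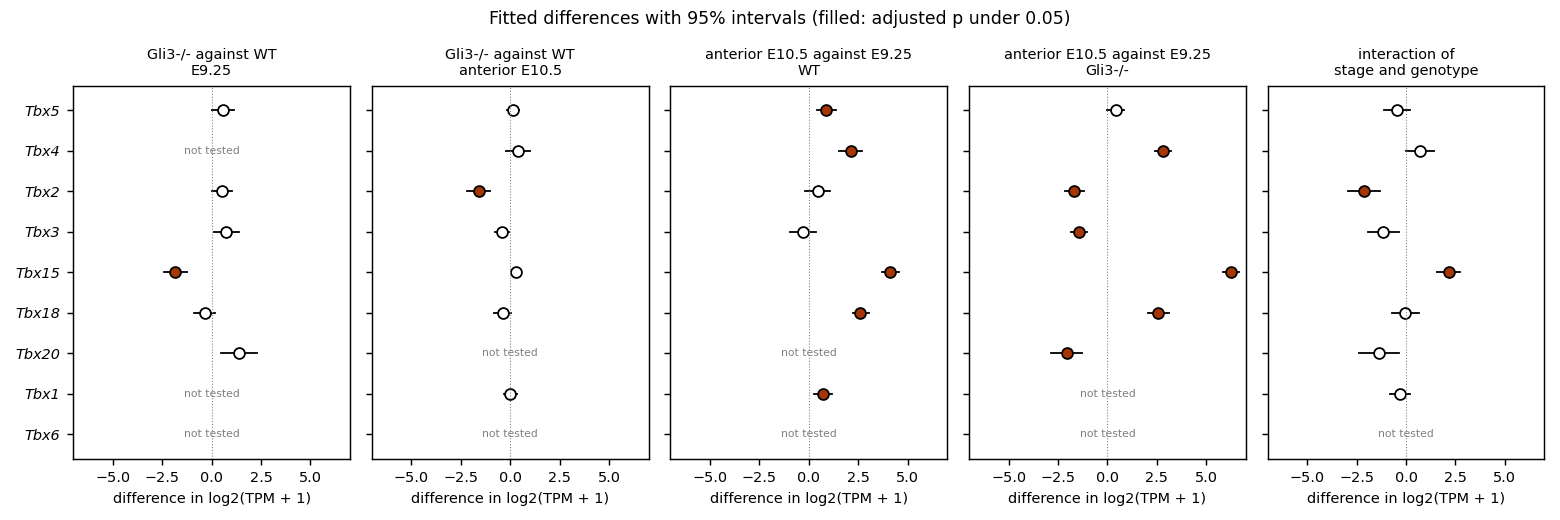
Points are fitted differences in log2(TPM + 1), lines are 95% intervals, and filled points have an adjusted p under 0.05, with 1 panel per comparison. Losing Gli3 gives a filled point for Tbx15 at E9.25 and for Tbx2 at anterior E10.5, and the stage panels reach 6.27 for Tbx15.

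The stages were then compared within WT. Of 7 genes tested 5 were higher at anterior E10.5 and 0 lower. Over all 15444 genes 48.7% were called, 38.1% higher and 10.6% lower, and the median gene differed by 0.34. Tbx1 and Tbx4 were under 1 TPM in every E9.25 WT library. They passed the filter through E10.5 alone, so that higher was the direction open to them. Tbx20, with lower listed values at E10.5, was below the filter and outside this count. Tbx15 rose most, from 3.24 to 6.38 TPM at E9.25 to 91.3 to 115 TPM at E10.5, a 20.1-fold difference in mean TPM (4.12, SE 0.19, limma adjusted p = 2e-05). Tbx18 rose 7.19-fold, from 4.92 to 5.73 TPM to 32.6 to 52.8 TPM (2.61, SE 0.18, limma adjusted p = 4.79e-05). Tbx4 rose from the few reads described above to 2.70 to 6.99 TPM (2.12, SE 0.25, limma adjusted p = 0.000483). The changes of Tbx5 (0.88, SE 0.21, limma adjusted p = 0.00983) and Tbx1 (0.72, SE 0.19, limma adjusted p = 0.0162) were smaller, and relative to the median gene they were 0.54 and 0.38. Tbx1 lost its call with quantile normalization (0.11, limma adjusted p = 0.711), with the replicate block (0.67, limma adjusted p = 0.0722) and without E9.25 WT replicate 3 (0.57, limma adjusted p = 0.0509). Tbx2 (0.44, limma adjusted p = 0.211) and Tbx3 (-0.29, limma adjusted p = 0.420) had overlapping groups. Without the library labelled WT replicate 2, Tbx3 also passed the test, as lower at E10.5 (-0.67, limma adjusted p = 0.0166), and Tbx15 (4.21), Tbx18 (2.55), Tbx4 (2.14), Tbx5 (0.72) and Tbx1 (0.89) were called as before. Tbx20 went from 0.191 to 1.62 TPM to listed values of 0 (exact permutation p = 0.0286, adjusted p = 0.129), and no fold is given for it.

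In Gli3-/- buds 6 of 7 genes tested were called between the stages, 3 higher and 3 lower. Over all 15434 genes 25.0% were called, 15.8% higher and 9.17% lower. Tbx4 and Tbx15 passed the filter through E10.5 and Tbx20 through E9.25, so that a single direction of call was open to each. Tbx15 went from 0.272 to 1.07 TPM to 118 to 146 TPM, a 185-fold difference in mean TPM (6.27, SE 0.18, limma adjusted p = 3.48e-08). Its starting level rested on 7.91 to 31.5 reads per kilobase. Tbx4 (2.83, SE 0.19, limma adjusted p = 4.65e-06) and Tbx18 (2.58, SE 0.24, limma adjusted p = 3.48e-05) were also higher. Tbx2 was 3.71-fold lower, from 10.9 to 18.2 TPM to 2.65 to 5.24 TPM (-1.67, SE 0.21, limma adjusted p = 0.000358). Tbx3 was 2.89-fold lower, from 35.2 to 56.3 TPM to 13.9 to 17.8 TPM (-1.45, SE 0.18, limma adjusted p = 0.000307). Tbx20 was lower (-2.07, SE 0.34, limma adjusted p = 0.00169), and since 2 of the 3 later libraries list it at 0, the size depends on the added 1 TPM. Tbx5 was not called (0.43, 95% interval -0.01 to 0.86, limma adjusted p = 0.139). Tbx1 was below the filter (exact permutation p = 0.0571), as was Tbx6 (exact permutation p = 0.6). Within a library Tbx4 minus Tbx5 was -5.21 to -4.30 in E9.25 WT and -5.94 to -5.07 in E9.25 Gli3-/-, with a change of -0.89 between the genotypes (exact permutation p = 0.0857, adjusted p = 0.114) and overlapping groups. The gap narrowed toward E10.5 by 1.24 in WT and 2.40 in Gli3-/-. Tbx4 was under 1 TPM in every E9.25 library, so that these sizes depend on the added 1 TPM. Settings other than a left-out library gave 1.09 to 2.79 in WT and 2.40 to 5.43 in Gli3-/-. Tbx15 gained on Tbx18 by 1.51 and 3.69. Each of these 4 changes between the stages had an exact permutation p of 0.0286 and an adjusted p of 0.0490, and the groups did not overlap. The 2 stage comparisons and the 2 genotype comparisons use the same 14 libraries, so that they are not independent of each other.

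Marker lists moved between the stages as well. Flank and heart markers had a summed level of 8.19 to 12 TPM in E10.5 WT and 9.11 to 21.0 TPM in E10.5 Gli3-/-, and 11 and 13 of the 14 were under 1 TPM in every library of these groups. Of 13 tested in Gli3-/-, 12 were lower at E10.5, led by Gata5 (-3.94, limma adjusted p = 8.16e-07) and Gata4 (-4.83, limma adjusted p = 2.38e-06). All tested but Osr1 passed the filter through E9.25 alone, so that lower was the only direction open to them. In WT 7 of 8 tested were lower and 1 was higher, and Gata4, Gata5, Wt1, Upk3b and Tnnt2 had the same limit. Without the library labelled WT replicate 2 only 3 were tested in WT, 2 of them lower. Markers of paraxial mesoderm and muscle progenitors rose from a sum of 25.9 to 28.5 TPM to 93.7 to 114 TPM in WT and from 21.4 to 30.4 TPM to 96.2 to 144 TPM in Gli3-/-. In WT 6 of 8 tested were higher, among them Pax3 (2.83, limma adjusted p = 2.84e-05), which marks migrating muscle progenitors, and 1 was lower, the somite gene Meox1 (-1.04, limma adjusted p = 0.00169). In Gli3-/- 6 of 7 were higher and Meox1 was again lower (-1.05, limma adjusted p = 0.00199). Pax3, Lbx1 and Myf5 were under 1 TPM in every E9.25 Gli3-/- library, and Myf5 in every E9.25 WT library. In those comparisons they passed the filter through E10.5 alone, so that higher was the only direction open to them. The presomitic genes Msgn1, Mesp2 and Hes7 were under 1 TPM in all groups, as was Tbx6 in 13 of 14 libraries. The part of these cell types in the levels of Tbx20, Tbx18 and Tbx6 was not tested.

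An interaction term compared the Gli3 effect at anterior E10.5 with that at E9.25. Of 8 genes tested 2 were called, against 2.13% of all 16368 genes. Tbx15 had an interaction of 2.15 (SE 0.28, 95% interval 1.56 to 2.74, limma adjusted p = 0.000985), from -1.84 at E9.25 to 0.31 at anterior E10.5. Tbx2 had one of -2.12 (SE 0.38, 95% interval -2.93 to -1.30, limma adjusted p = 0.00924), from 0.52 to -1.59. The median gene had an interaction of -0.24, and relative to it the values were 2.39 and -1.88. Both were called with each of the 14 libraries left out in turn, and neither with the replicate number as a block (limma adjusted p = 0.0577 for Tbx15 and 0.188 for Tbx2). Tbx3 (-1.16, limma adjusted p = 0.122), Tbx20 (-1.37, limma adjusted p = 0.148), Tbx4 (0.71, limma adjusted p = 0.230), Tbx5 (-0.45, limma adjusted p = 0.384), Tbx1 (-0.30, limma adjusted p = 0.451) and Tbx18 (-0.03, limma adjusted p = 0.964) were not called. Over all genes 270 of the 348 interaction calls were negative and 78 positive, and calls in several lists were mostly negative too. They numbered 7 of 12 for the girdle genes, 6 of 13 for the flank and heart markers and 4 of 13 for the BMP genes, all negative. Of the flank and heart markers called, Gata4, Gata5, Foxf1 and Tcf21 were under 1 TPM in every E10.5 library. Their interactions mostly repeat their E9.25 differences with the sign reversed. Pax1 was under 1 TPM in every E9.25 library, so that its interaction mostly repeats its E10.5 difference. Forelimb genes had 6 negative calls and 2 positive of 16, and hindlimb genes 0 of 4. Limb mesenchyme markers had 2 negative and 1 positive of 9, and surface ectoderm markers 1 of each of 8. Paraxial mesoderm and neural markers had 1 call each, both positive, and blood markers 0 of 10. Without the library labelled WT replicate 2, 155 interaction calls over all genes were negative and 63 positive. Flank and heart markers then had 4 negative calls, and girdle and BMP genes 7 and 4 as before. Forelimb genes had 6 negative calls and 1 positive, mesenchyme markers 2 negative and surface ectoderm markers 1 positive. Paraxial mesoderm and neural markers had 0.

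The neighbors of the called genes were examined in the same fits. Wars2 ends 1195 bases before Tbx15 and differed by 0.22 (limma adjusted p = 0.556) in the E9.25 comparison in which Tbx15 was lower. The gene Gm43120, annotated on the opposite strand within Tbx15, was at 0.728 to 1.59 TPM in E9.25 WT, listed at 0 in all 4 E9.25 Gli3-/- libraries, and at 25.5 to 35.9 TPM in E10.5 WT and 26.9 to 34.7 TPM in E10.5 Gli3-/-. Its interaction was 1.13 (limma adjusted p = 0.0177). The counting is not stated to use strand, so that reads of Tbx15 and Gm43120 cannot be told apart where the genes overlap. Around Tbx2, Bcas3 on one side (-0.37, limma adjusted p = 0.182) and Tbx4 on the other (0.40, limma adjusted p = 0.457) were not called in the E10.5 genotype comparison. Tbx3os1 overlaps the start of Tbx3 by 697 bases on the opposite strand and was at 0.104 to 2.56 TPM. D030062O11Rik overlaps Tbx18 by 1976 bases in the same way and was at 0.162 to 1.70 TPM, against 2.94 to 52.8 TPM for Tbx18. It was higher at E10.5 in WT (0.55, limma adjusted p = 0.0238). At 0.32 to 0.5 TPM in E9.25 WT, it passed the filter through E10.5, so that higher was the only direction open to it. Gm43050, on the other strand and 748 bases from Tbx5, was higher at E10.5 in WT (1.34, limma adjusted p = 0.000502) and in Gli3-/- (1.03, limma adjusted p = 0.00271).

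For each member in the 14-library fit, the 3 genes with the most similar profile were found by the root mean square (RMS) difference of log2(TPM + 1), each gene centered on its mean over the 14 libraries, among 16367 other genes. This is a description, since all points share the same libraries and their depth. For Tbx15, whose own profile had an RMS of 2.74, they were Shox2 (0.30), Hoxa11 (0.45) and Hoxa11os (0.45). Shox2, a homeobox factor of proximal limb growth, had means of 7.09 TPM in E9.25 WT, 1.81 in E9.25 Gli3-/-, 115 in E10.5 WT, and 199.7 in the later Gli3-/- libraries. For Tbx2 (RMS 0.73) they were Tgfb2 (0.29), Kctd12 (0.30) and Meis1 (0.31), and Meis1, a homeobox factor of the proximal limb, had means of 32.1, 48.1, 43.7 and 16.1 TPM in the same order of groups. Tbx3 was followed by Ptpn13 (0.15), St3gal1 (0.18) and Plxna2 (0.20). Tbx4 was followed by Tgfb3 (0.26), Lpar1 (0.27) and Wipi1 (0.27), and Tbx5 by Kank2 (0.09), St5 (0.10) and Cand2 (0.11). Tbx18 was nearest to Gm27202 (0.24), Gstm7 (0.25) and Dclk1 (0.26). Tbx20 was nearest to Podxl (0.19), Igsf11 (0.22) and Adamts2 (0.22), and Podxl, a sialomucin of podocytes and mesothelium, had means of 24.4, 58.8, 13.1 and 11.7 TPM. Tbx1, a low gene with an RMS of 0.34, was nearest to Pecam1 (0.11), Astn2 (0.12) and Nrm (0.13). Among the members themselves the closest profiles were those of Tbx1 and Tbx5 (0.31), Tbx4 and Tbx18 (0.37), Tbx3 and Tbx20 (0.54) and Tbx2 and Tbx3 (0.55). Genes that vary little are close to each other by this measure whatever their pattern. The RMS of the profile itself was 0.34 for Tbx1, 0.46 for Tbx5, 0.63 for Tbx3 and 0.98 for Tbx20.

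The other 8 T-box genes of the mouse were mostly low. Eomes, Tbr1, Tbx10, Tbx19, Tbx21 and Tbx22 were under 1 TPM in every library. T, the founding gene of the family (Brachyury), reached 1.5 TPM and passed the filter in the E10.5 genotype comparison and the interaction, with a difference of 0.03 between genotypes (limma adjusted p = 0.946). Mga, which joins a T-box to a bHLH domain and is widely expressed, stood at 18.6 to 29.1 TPM in every library except that labelled E9.25 WT replicate 2, where it was 4.29 TPM. Neither was called in any comparison in which it was tested. Markers of other tissues were measured too. Neural markers summed to 3.36 to 15.5 TPM, with 6 of 7 under 1 TPM in every library, and Tubb3, the seventh, had an interaction of 1.54 (limma adjusted p = 0.0231), and 1.5 without the library labelled WT replicate 2, where it was not called. Surface ectoderm markers summed to 159 to 361 TPM, with 1 of 8, Fgf8, higher at E10.5 in Gli3-/- and 0 of 8 called at E9.25. Blood and endothelial markers summed to 7029 to 33296 TPM, and 0 of 10 were called in either genotype comparison.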

How the data were processed

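RNA from pooled forelimb buds was sequenced by the authors as single reads of 100 bases and aligned with HISAT2. Per the labels the genome build was mm10. The deposited tables give, for each gene, the coverage (a signal: mean read depth per base), FPKM and TPM, as the authors computed them, and the tool that made them is not given in the sources used here. Since these are not counts, values were tested on a log scale. Lines of 1 gene ID were summed. Depth per library was taken from the most frequent coverage/FPKM quotient over genes, and each gene's reads per kilobase from its FPKM.

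Genes with at least 1 TPM in at least 3 of the libraries compared were tested on log2(TPM + 1) with limma 3.58.1 (lmFit, eBayes with a trend) in R 4.3.3, two-sided, with Benjamini-Hochberg adjustment at 0.05. Members below the filter, and differences between paralogs, were tested by exact permutation over the 35 splits of 7 libraries, two-sided. The fit was tested on simulated data. Other steps used Python 3.11.15 and SciPy 1.17.1.

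The members, gene lists and tests were chosen with earlier results of these data known. Some genes stand in more than 1 list. Lists covered other T-box genes, forelimb, hindlimb, BMP and girdle genes, and markers of limb mesenchyme, flank and heart, paraxial mesoderm, ectoderm, neural tissue and blood. Named were all members, up to 4 called genes of a list per comparison by smallest adjusted p, other list genes as examples of levels, overlapping and neighboring genes, and the 3 genes nearest in profile. The alternative settings were quantile normalization, size factors, a fit with no trend, no low-value filter or one at 5 TPM, a pseudocount of 0.1, a block by the replicate number of the labels or of the deposited tables, 1 model of all 14 libraries and each library left out. The list counts without E9.25 WT replicate 2 were added after seeing the data. Replicates are separate pools, so p-values measure the spread between pools. The other assays of the series were not used here.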

Additional observations from a re-analysis of the deposited data

Results flagged for a closer look

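Of the 8 T-box genes tested with an interaction term in limma, 2 had a Gli3 effect that was not the same at E9.25 and at anterior E10.5. For Tbx2 the effect at anterior E10.5 minus that at E9.25 was -2.12, and for Tbx15 it was 2.15.

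In groups of 4 libraries, the gap of the highest or lowest library to its neighbor was set against the range of the group in 17 tests, of which chance alone flags about 1 in 20. Tbx4 in E9.25 Gli3-/- replicate 4 was at 0.04 log2(TPM + 1), where the other 3 libraries were listed at 0, so that any value above 0 would have stood out in this way. Tbx6 in E9.25 Gli3-/- replicate 2 was at 1.15, where the others lay between 0.45 and 0.56. Both values are near or below 1 TPM.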

How the results depend on the processing

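At E9.25 the number of T-box genes called, 1 as reported, was 0 with a pseudocount of 0.1 or without a filter, 0 with a filter at 5 TPM, which removes Tbx15 from the test, 2 with 1 model of all 14 libraries or with the replicate block, where Tbx20 joined Tbx15, and 0 to 1 with a library left out. In the E10.5 genotype comparison it was 1 as reported, 0 without a filter and 0 with the replicate block. For the interaction it was 2 as reported, 0 with the replicate block and 2 to 4 with a library left out. For stage in WT it was 5 as reported, 3 with a filter at 5 TPM, which removes Tbx1 and Tbx4 from the test, and 4 to 6 with a library left out. Where no reason is named, the cause was not tested.

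Fitted values near 0 changed sign. The E10.5 genotype difference of Tbx1, -0.00 as reported, was 0.02 with size factors, 0.01 with a pseudocount of 0.1, 0.07 with quantile normalization, 0.06 with the replicate block and 0.01 with a block by the number in the deposited tables, and -0.08 to 0.06 with a library left out, and that of Tbx5 was -0.01 to 0.20. The interaction of Tbx18, -0.03 as reported, was 0.20, 0.04, 0.21 and 0.12 under the first 4 of these settings and -0.22 to 0.16 with a library left out. The E9.25 change of Tbx4 minus Tbx5, -0.89 as reported, was -2.30 with a pseudocount of 0.1 (exact permutation p = 0.0286).

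With a library left out, the exact permutation tests of paralog differences cannot reach p = 0.05, so only the values are informative. Tbx2 minus Tbx3 changed by -0.51 to 0.10 at E9.25 and by -1.30 to -0.99 at E10.5. Tbx4 minus Tbx5 changed between the stages by 0.96 to 1.42 in WT and by 2.27 to 2.56 in Gli3-/-. Tbx15 minus Tbx18 changed by -1.77 to -1.27 between the genotypes at E9.25, by 0.59 to 0.78 at E10.5, and between the stages by 1.23 to 1.66 in WT and 3.47 to 3.82 in Gli3-/-.

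Same-numbered libraries did not deviate together, with a mean correlation of -0.168 at E9.25 and -0.053 at E10.5, so the replicate numbers of the labels were not taken as pairs. By the number in the deposited tables the E10.5 correlations were 0.05 to 0.292, with a mean of 0.171 against -0.057 for unlike numbers, and this block left the E10.5 count at 1.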
